A study of Homo sapiens with 38 samples.

Results

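The polyamine genes described here are ODC1, AMD1, SRM, SMS, SAT1, SMOX, PAOX, OAZ1, OAZ2 and AZIN1. They were taken by symbol from the count files of cell lines described as human neuroblastoma. All 10 were found among the 50652 genes listed for BE2C cells and among the 50778 listed for the lines given palbociclib. All 10 also passed the filter on low counts in each of the 3 experiments, so each comparison covers the full set.

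Total RNA was sequenced from established cell lines only. BE2C cells, a line with MYCN amplification, received GSK-J4, an inhibitor of the KDM6 family of histone demethylases, at 2.5 µM for 0 h, 24 h or 48 h, with 2 libraries per time. Other BE2C cells were transfected for 72 h with a control siRNA (siCtrl, 2 libraries) or with siRNA N1, N2 or N33 against KDM6B (siKDM6B, 1 library each). CHLA15 and CHLA20 cells received palbociclib, an inhibitor of the kinases CDK4 and CDK6, at 300 nM, and NB1643 and NB1691 cells received it at 3 µM, for 72 h in each line, beside control cells of the same line (2 libraries per line and condition). All cells were grown in medium with serum, and no group carried a deletion or a transgene by its labels. The labels do not say what the palbociclib controls received or whether replicates came from separate cultures, so p-values measure only the spread between these samples, which may be technical. The extraction text in the labels names xenograft tissues although every sample is labelled as a cell line.

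Polyamines (putrescine, spermidine and spermine) are small positively charged metabolites that bind nucleic acids and are needed for growth. ODC1 makes putrescine from ornithine, AMD1 decarboxylates S-adenosylmethionine to supply aminopropyl groups, and SRM and SMS use these groups to make spermidine and spermine. SAT1 acetylates the products for export or for oxidation by PAOX, SMOX oxidises spermine back to spermidine, the antizymes OAZ1 and OAZ2 bind ODC1 and send it to the proteasome, and AZIN1 sequesters antizymes. ODC1 is a known direct target of MYC proteins and, like MYCN, lies on the short arm of chromosome 2. AMD1 and the antizymes are known to be controlled to a large part during translation, and ODC1 by protein turnover, which counts of RNA do not measure. In bulk libraries fewer cells and less RNA per cell cannot be told apart.

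The sequence CACGTG, the E-box core bound by MYC proteins, was searched on both strands of GRCh37 around the annotated start site of each gene; the motif reads the same on either strand. It occurred within 1000 bases of the start in ODC1 and SRM (3 matches each), AZIN1 (2 matches) and PAOX (1 match), and in none of the other members, whereas 29.2% of 19894 protein-coding windows of that size held it. In the narrower window from 250 bases before to 50 bases after the start, SRM alone among the 10 members held it, against 8.76% of all windows. The stretches of ODC1 and SRM are shown because ODC1 had the highest level in BE2C cells and SRM the largest fall with GSK-J4. Capitals mark the motif, and each stretch is written 5′ to 3′ on the gene's own minus strand, with 20 bases on either side.
ODC1, upstream of the start, chr2:10588921-10588966: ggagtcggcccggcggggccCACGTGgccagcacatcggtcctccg
ODC1, intron 1, chr2:10588108-10588187: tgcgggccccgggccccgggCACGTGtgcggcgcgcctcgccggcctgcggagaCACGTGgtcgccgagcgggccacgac
SRM, upstream of the start, chr1:11120249-11120294: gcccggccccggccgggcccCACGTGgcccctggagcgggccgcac
SRM, intron 1, chr1:11119599-11119644: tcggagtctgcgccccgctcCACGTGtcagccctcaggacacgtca
SRM, intron 1, chr1:11119509-11119554: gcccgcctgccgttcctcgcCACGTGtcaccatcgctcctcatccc
The ODC1 matches lay at position -493 and, as a pair, at 287 and 321 from the start site, and those of SRM at -199, 452 and 542. A match is a description of the letters and not evidence of binding in these cells. The same search for the E2F motif, written TTTGGCGC or TTTCCCGC, found it within 1000 bases of the start in SMS alone among the members, at position 157, against 10.7% of all windows.

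Libraries held 36186567 to 63433818 counts on genes with GSK-J4, 41227956 to 50776662 with siRNA and 45457371 to 93011010 with palbociclib. Levels are given as CPM, the counts of a gene per 1000000 counts on genes, after TMM scaling within each experiment. Of 7 sympathoadrenal markers (PHOX2A, HAND2, GATA3, ISL1, DBH, CHGA and CHGB), all were above 3 counts in every library, and they summed to 960 to 3856 CPM in BE2C, 2401 to 2630 CPM in CHLA15, 2173 to 2460 CPM in CHLA20 and 3237 to 5205 CPM in NB1643. The libraries labelled NB1691 stood apart within their experiment, with a sum of 528 to 1018 CPM. In NB1691 the 11 listed markers of other cell types summed to 14691 to 19974 CPM, nearly all of it COL1A1, against at most 151 CPM in any other library. KRT5, a keratin of basal epithelium, stood at 84.5 and 86.8 CPM in the NB1691 controls and at 0 in the other control libraries of that experiment, and COL1A2, which encodes the partner chain of COL1A1 in collagen I, stood at 1.76 and 1.63 CPM there. Tests across lines are therefore also given without NB1691, and the part of these differences in the results was not tested. Whether the NB1691 libraries match their label was not tested either, and NB1691 is used below as that label.

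MYCN stood at 3004 and 3027 CPM in untreated BE2C cells and at 3093 and 3257 CPM in NB1643 controls. MYCN stood at 86.1 and 86.5 CPM in NB1691 and at 2.28 to 3.39 CPM in CHLA15 and CHLA20 controls, in which MYC stood at 662 to 719 CPM. KDM6B, the gene targeted by the siRNAs, stood at 6.47 and 8.76 CPM in the siCtrl libraries and at 8.99, 7.11 and 8.26 CPM in those labelled siKDM6B N1, N2 and N33. KDM6B RNA was thus not lower in the libraries labelled siKDM6B, and the labels are kept below only as names. The paper reports knockdown of KDM6B by siRNA in BE2C cells beside Western blots, and counts of RNA do not measure protein.

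Per kilobase of the canonical transcript, a scale meant for comparing levels of different genes, ODC1 was the highest member in untreated BE2C cells, at 335 CPM per kb (333 and 337 in the 2 libraries). OAZ1 followed at 222 CPM per kb, and SMS, AZIN1, AMD1, SRM and OAZ2 stood at 104, 78.7, 69.4, 43.3 and 29.1 CPM per kb. The genes that break polyamines down were the lowest, with SAT1 at 3.60, SMOX at 0.748 and PAOX at 0.304 CPM per kb. No neighbours in this order overlapped between their libraries, but such overlap does not measure the error from the length used. All annotated exons together hold 3436 bases in OAZ1, where the canonical transcript holds 1148. The same lengths are 10193 and 3423 in AMD1, and 2130 and 1703 in SMS. The order here and in the other lines can therefore change with the length chosen. In the controls of all 4 other lines OAZ1 was the highest member, at 218 to 287 CPM per kb, and ODC1 came next in CHLA15, CHLA20 and NB1643 at 110, 116 and 127 CPM per kb. In NB1691 controls ODC1 was sixth in order at 44.4 CPM per kb, and its libraries overlapped those of OAZ2 (45.4 CPM per kb). SAT1, SMOX and PAOX held the 3 lowest places, in that order, in all 5 lines. In CHLA20, SRM, AZIN1 and SMS could not be ordered because their libraries overlapped. BE2C and the other lines were fitted apart, so no test was made between them.

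With GSK-J4 the spermidine and spermine synthases fell and the oxidase SMOX rose in BE2C cells. SRM fell to 0.376 times its 0 h level by 48 h, SMS fell by 0.32 on the log2 scale, and SMOX rose 3.72-fold by 24 h and 3.44-fold by 48 h. ODC1 and AMD1 moved at 24 h in opposite directions and were back near their starting levels at 48 h. At 24 h, 2 members were higher and 5 lower than at 0 h, where 27.3% of 17734 genes tested were higher and 28.0% lower. At 48 h it was again 2 higher and 5 lower, against 37.1% and 34.4% of all genes. The median log2 fold change of the 10 members was -0.077 at 24 h and -0.075 at 48 h, against 0.014 and 0.055 over all genes, and the median size of the change regardless of direction was 0.337 and 0.324, against 0.292 and 0.478. Both times are compared with the same 0 h libraries. No untreated cells at 24 h or 48 h were among these samples. Changes with GSK-J4 and changes with time in culture therefore cannot be told apart here or below.

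**Figure D1:**
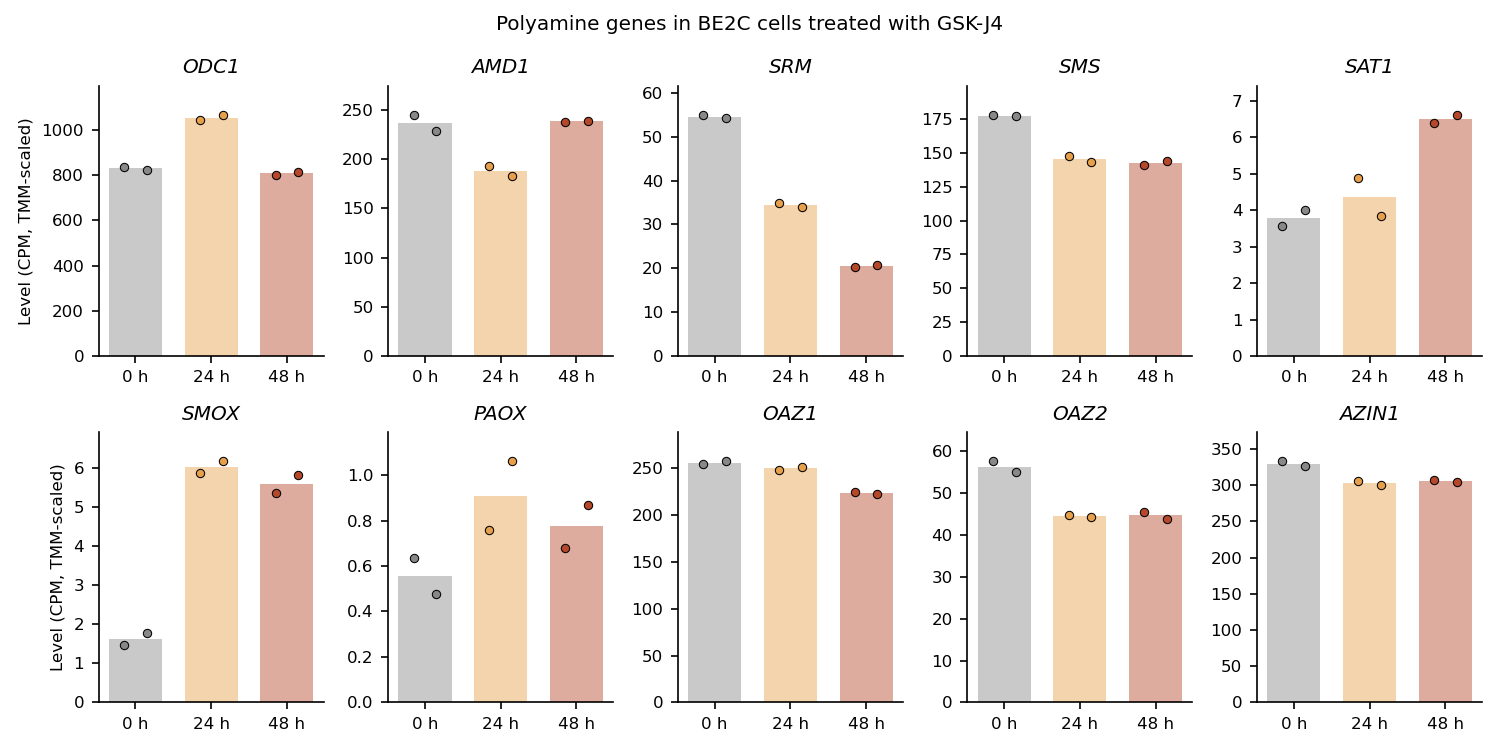
Level of each polyamine gene in BE2C cells at 0 h, 24 h and 48 h of GSK-J4, in TMM-scaled CPM on linear axes that start at 0 and differ between panels. Points are libraries (n = 2 per time) and bars their means. SRM steps down from 54.6 to 20.6 CPM, SMOX steps up from 1.61 to 6.03 CPM, and ODC1 peaks at 24 h.

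Among the enzymes of synthesis, ODC1 stood at 836 and 824 CPM at 0 h, at 1044 and 1067 CPM at 24 h and at 802 and 816 CPM at 48 h. The 24 h libraries lay above all others, with a log2 fold change of 0.35 ± 0.027 (SE, adjusted p = 1.5e-15). At 48 h the change from 0 h was -0.037 (95% interval -0.091 to 0.016, adjusted p = 0.206), and from 24 h to 48 h ODC1 fell by 0.38 (adjusted p = 5.1e-17). The value at 48 h depended on the processing: with upper quartiles, which shifted the median of all genes by 0.11, ODC1 was 0.073 higher than at 0 h (adjusted p = 0.0139). It passed as lower with DESeq2 (-0.066, adjusted p = 0.0194) and with no filter beyond 1 count (-0.054, adjusted p = 0.0479). MYCN was lower in both later groups, at 1669 and 1717 CPM at 24 h and 1467 and 1433 CPM at 48 h.

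AMD1 moved opposite to ODC1 at 24 h. It stood at 245 and 229 CPM at 0 h, at 193 and 183 CPM at 24 h and at 238 and 239 CPM at 48 h. The 24 h libraries lay below all others, by 0.34 on the log2 scale (SE 0.032, adjusted p = 1.8e-12), and AMD1 rose again by 0.34 from 24 h to 48 h (adjusted p = 6.7e-13). At 48 h it differed from 0 h by 0.0053 (95% interval -0.058 to 0.069, adjusted p = 0.887), or by 0.12 with upper quartiles (adjusted p = 0.00109).

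SRM, the spermidine synthase, had the largest fall of any member. Its libraries held 55.0 and 54.2 CPM at 0 h, 34.9 and 33.9 CPM at 24 h and 20.3 and 20.8 CPM at 48 h, so that each time lay apart from the next. The log2 fold change against 0 h was -0.67 ± 0.046 (SE) at 24 h and -1.41 ± 0.048 at 48 h, with adjusted p of 5.4e-17 and 6.8e-29. The further fall of 0.74 from 24 h to 48 h also passed the test (adjusted p = 2.2e-17). SMS, the spermine synthase, went from 178 and 177 CPM to 148 and 143 CPM at 24 h and 141 and 144 CPM at 48 h. Both later groups of SMS lay below 0 h (log2 fold changes of -0.28 and -0.32, adjusted p of 9.1e-11 and 1.5e-12) and overlapped each other (-0.031 from 24 h to 48 h, adjusted p = 0.409).

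Among the genes of breakdown, SMOX rose most. It stood at 1.46 and 1.77 CPM at 0 h, at 5.88 and 6.17 CPM at 24 h and at 5.36 and 5.83 CPM at 48 h. The log2 fold change was 1.90 ± 0.15 (SE) at 24 h and 1.78 ± 0.15 at 48 h, with adjusted p of 2.3e-15 and 4.9e-15, and the times after treatment did not differ past the threshold (adjusted p = 0.38). At its highest, SMOX was still at 2.78 CPM per kb, far under the enzymes of synthesis. SAT1 rose later, from 3.56 and 4.0 CPM at 0 h through 4.89 and 3.83 CPM at 24 h to 6.39 and 6.62 CPM at 48 h. The 24 h libraries of SAT1 overlapped those at 0 h (log2 fold change 0.21, adjusted p = 0.188), whereas the 48 h libraries lay above both (0.78 ± 0.12 against 0 h, adjusted p = 2.0e-07). Without the second 24 h library the change of SAT1 at 24 h was 0.38, past the threshold (adjusted p = 0.0285). PAOX had as few as 17 counts in a library and stood at 0.635 and 0.478 CPM at 0 h, 0.759 and 1.06 CPM at 24 h and 0.679 and 0.870 CPM at 48 h. Neither of its changes passed the test, and the interval at 24 h ran from 0.06 to 1.35 on the log2 scale (adjusted p = 0.0581). At 24 h PAOX passed the threshold with upper quartiles, with at least 10 counts in every library, with each file as a sample and without the first 24 h library, at changes of 0.72 to 0.93.

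Among the regulators of ODC1 protein, OAZ1 stood at 254 and 257 CPM at 0 h, 248 and 251 CPM at 24 h and 224 and 222 CPM at 48 h, and it was lower at 48 h by 0.19 (adjusted p = 9.5e-08) but not past the threshold at 24 h (-0.032, adjusted p = 0.361). OAZ2 stood at 57.6 and 55.0 CPM at 0 h and at 43.9 to 45.5 CPM at both later times, a change of -0.34 at 24 h and -0.33 at 48 h (adjusted p of 5.6e-09 and 2.8e-09). AZIN1, the inhibitor of antizyme, went from 333 and 327 CPM to 306 and 301 CPM at 24 h and 307 and 304 CPM at 48 h. Its change of -0.12 at 24 h and -0.11 at 48 h passed the test (adjusted p of 2.8e-04 and 4.0e-04), but at 48 h it was -0.0033 with upper quartiles (adjusted p = 0.922). From 24 h to 48 h, 2 members were higher (AMD1 and SAT1) and 3 lower (ODC1, SRM and OAZ1), against 25.9% and 28.0% of all genes tested. Of the 7 members called at each time, 2 had a change of over 0.5 on the log2 scale at 24 h (SRM and SMOX) and 3 at 48 h (SRM, SMOX and SAT1). The share of all genes called past 0.5 was not counted. Over all genes tested, the median size of the change was 0.292 at 24 h and 0.478 at 48 h.

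A wider list of 28 genes of precursor supply, transport, hypusine formation (the use of spermidine to modify EIF5A) and relatives of the members had 23 genes tested in BE2C. Of these, 4 were higher and 14 lower at 24 h, and 6 higher and 13 lower at 48 h, with a median log2 fold change of -0.19 and -0.29. Over all genes the shares were 27.3% higher and 28.0% lower at 24 h, and 37.1% and 34.4% at 48 h. From 24 h to 48 h, 5 were higher and 10 lower, against 25.9% and 28.0% of all genes. ARG2, a mitochondrial arginase that yields ornithine, stood at 4.75 and 5.66 CPM at 0 h, 25.3 and 25.5 CPM at 24 h and 26.4 and 26.5 CPM at 48 h. The rise of ARG2 was 4.88-fold at 24 h and 5.08-fold at 48 h (adjusted p of 3.2e-28 and 1.5e-29). SLC3A2, the heavy chain of amino acid exchangers, rose from 196 and 198 CPM to 396 and 412 CPM at 24 h (2.06-fold, adjusted p = 1.2e-31) and stood at 286 and 289 CPM at 48 h.

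EIF5A, the translation factor that carries hypusine, fell in step with time. It stood at 453 and 447 CPM at 0 h, 275 and 270 CPM at 24 h and 185 and 183 CPM at 48 h, which is 0.606 and 0.41 times the 0 h level (adjusted p of 2.9e-26 and 1.9e-36). ALDH18A1, which makes the precursor of proline and ornithine from glutamate, stood at 202 and 203 CPM at 0 h, 141 and 138 CPM at 24 h and 107 and 114 CPM at 48 h (log2 fold changes of -0.54 and -0.88, adjusted p of 2.6e-19 and 1.2e-27). SLC12A8, a transporter, was higher at 48 h than at 0 h, at 6.39 and 6.66 CPM against 2.93 and 3.32 CPM (log2 fold change 1.06, adjusted p = 1.3e-10). From 24 h to 48 h the rule also named SLC12A8 (0.87) and EIF5A2 (0.30) as higher, and ADI1 (-0.51) and EIF5A (-0.56) as lower.

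**Figure D2:**
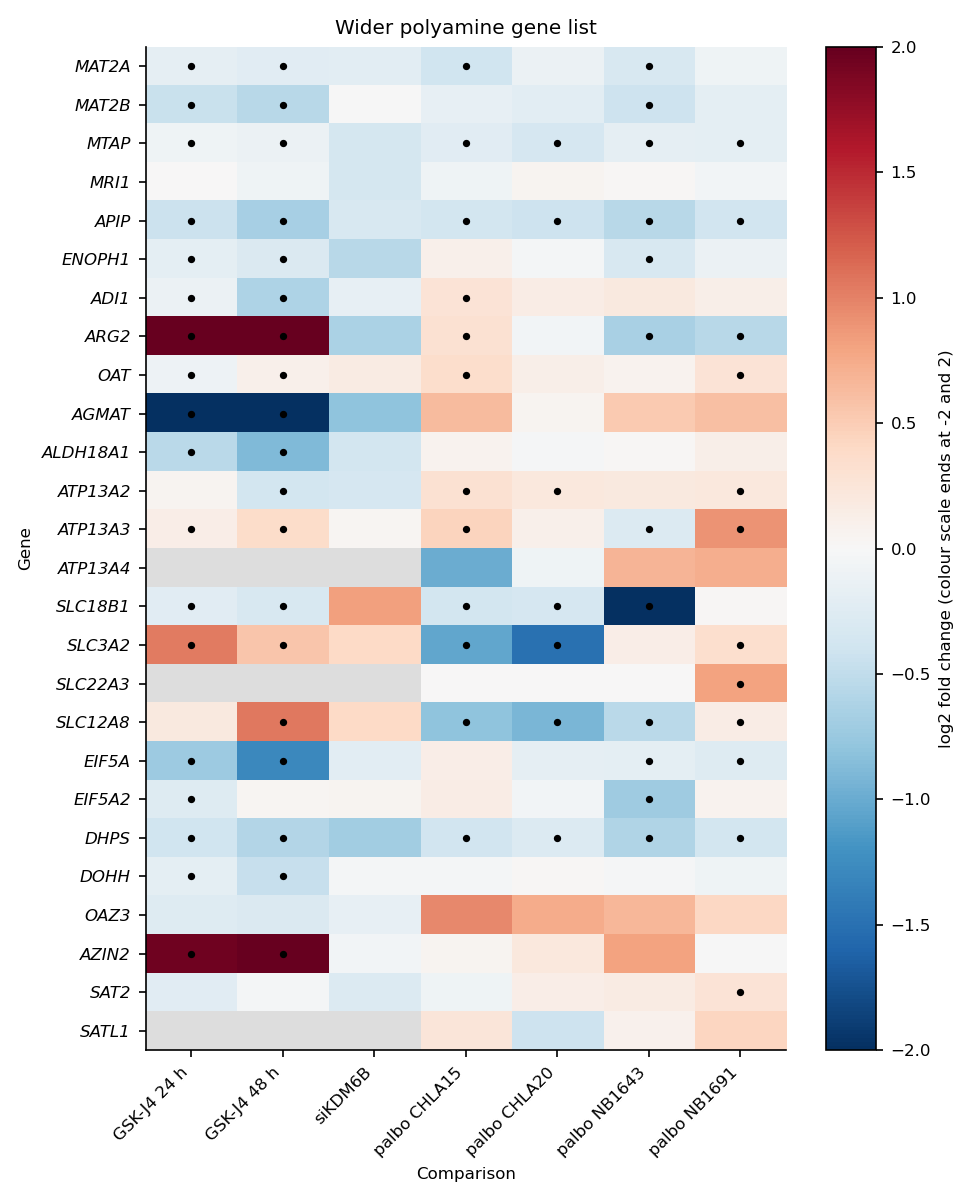
Log2 fold change of each tested gene of the wider polyamine list (rows) in 7 comparisons (columns), from blue for lower to red for higher, with a colour scale that ends at -2 and 2. Black dots mark an adjusted p under 0.05 and grey cells genes that were not tested. ARG2 is red and EIF5A blue in both GSK-J4 columns, and SLC3A2 is red there but blue with palbociclib in CHLA15 and CHLA20.

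In the libraries labelled siKDM6B, no member differed from siCtrl past the threshold. The share of genes called by edgeR was 0% higher and 0% lower of 17472 tested, and at an unadjusted p under 0.05 edgeR gave 827 higher and 788 lower genes, and 2 of the 10 members (SMS and AZIN1). limma-voom also called 0 genes, and DESeq2 called 157 genes with none of the members. The median log2 fold change of the members was -0.29, against 0.044 over all genes. The 3 siRNAs differed widely from each other, with a common coefficient of variation of 0.35, against 0.0219 with GSK-J4 and 0.0523 with palbociclib.

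**Figure D3:**
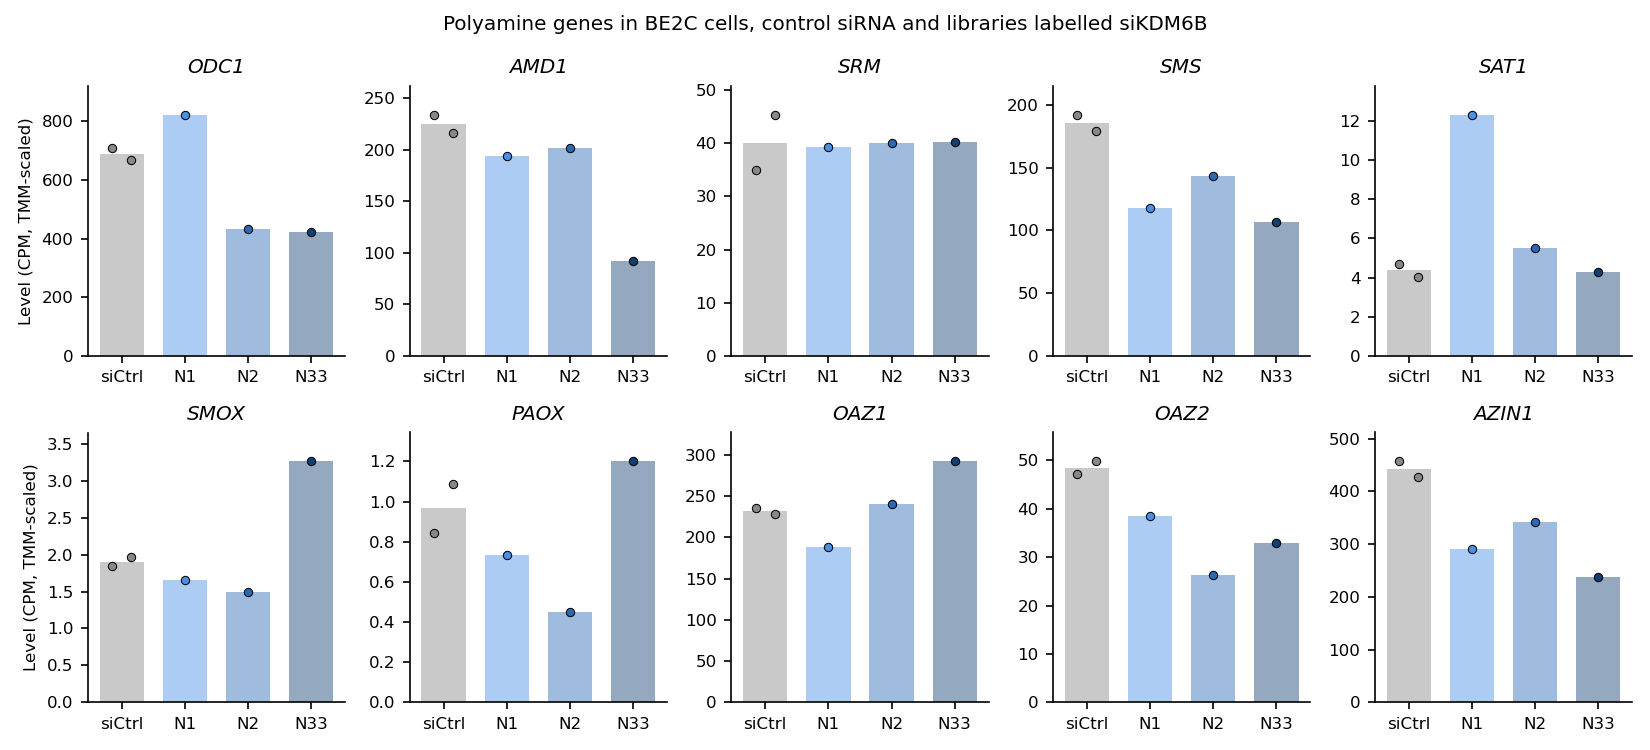
Level of each polyamine gene in BE2C cells, in TMM-scaled CPM on linear axes from 0 that differ between panels, for siCtrl (n = 2) and the single libraries labelled siKDM6B N1, N2 and N33. Points are libraries and bars means. SMS, AZIN1, OAZ2 and AMD1 lie below both siCtrl libraries for all 3 siRNAs, and SAT1 is highest with N1.

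SMS stood at 192 and 179 CPM with siCtrl and at 118, 143 and 107 CPM with N1, N2 and N33. AZIN1 stood at 457 and 428 CPM with siCtrl and at 291, 343 and 238 CPM, OAZ2 at 47.1 and 49.8 CPM and at 38.6, 26.3 and 32.9 CPM, and AMD1 at 234 and 216 CPM and at 194, 202 and 92.2 CPM. In these 4 members all 3 libraries lay below both siCtrl libraries, as in 16.8% of all genes tested, and in no member did they lie above both, as in 16.3% of all genes. The log2 fold changes were -0.60 for SMS (95% interval -1.12 to -0.075), -0.61 for AZIN1 (-1.16 to -0.06), -0.57 for OAZ2 (-1.15 to 0.0096) and -0.47 for AMD1 (-1.33 to 0.39), with adjusted p of 0.523, 0.523, 0.547 and 0.716. The change of AMD1 was -0.18 without N33. Treating each file as a sample took SMS, AZIN1 and OAZ2 past the threshold (adjusted p of 0.00669, 0.0106 and 0.024), but then the files of 1 library count as separate samples.

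ODC1 stood at 708 and 666 CPM with siCtrl, at 821 CPM with N1, at 431 CPM with N2 and at 422 CPM with N33, so it lay above siCtrl for one siRNA and below it for the others (-0.30, adjusted p = 0.805). The change of ODC1 was -0.68 without N1, -0.14 without N2 and -0.13 without N33, past the threshold in none of these. MYCN was at 1742 and 1736 CPM with N1 and N2 but at 466 CPM with N33, against 1596 and 1613 CPM with siCtrl. SAT1 stood at 4.68 and 4.04 CPM with siCtrl and at 12.3, 5.52 and 4.27 CPM, and its change of 0.75 became 0.17 without N1. SMOX stood at 1.84 and 1.97 CPM with siCtrl and at 1.66, 1.49 and 3.26 CPM, and its change of 0.17 became -0.27 without N33. OAZ1 stood at 236 and 228 CPM with siCtrl and at 188, 240 and 292 CPM, and its change of 0.049 became -0.12 without N33. SRM stood at 34.9 and 45.3 CPM with siCtrl, with all 3 libraries labelled siKDM6B between these values, and PAOX lay between 0.452 and 1.20 CPM over the 5 libraries. Of the wider list, 23 genes were tested and 0 passed the threshold, with a median log2 fold change of -0.21.

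Before treatment, all 10 members passed the test of a difference among the 4 other lines, near the share of all genes (91.2% of 22133). Without NB1691, 9 passed, the exception being SAT1 (adjusted p = 0.181). CHLA15 and CHLA20 did not differ in any member, where 12.4% of all genes did (edgeR, 0 members at an unadjusted p under 0.05). The largest difference between these lines was 0.18 for SAT1 (adjusted p = 0.304). NB1643 differed from CHLA15 in 9 members and from CHLA20 in 8, against 64.6% and 64.5% of all genes. NB1691 differed from CHLA15 in 8, from CHLA20 in 9 and from NB1643 in all 10 members, against 78.0%, 77.5% and 80.7% of all genes.

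**Figure D4:**
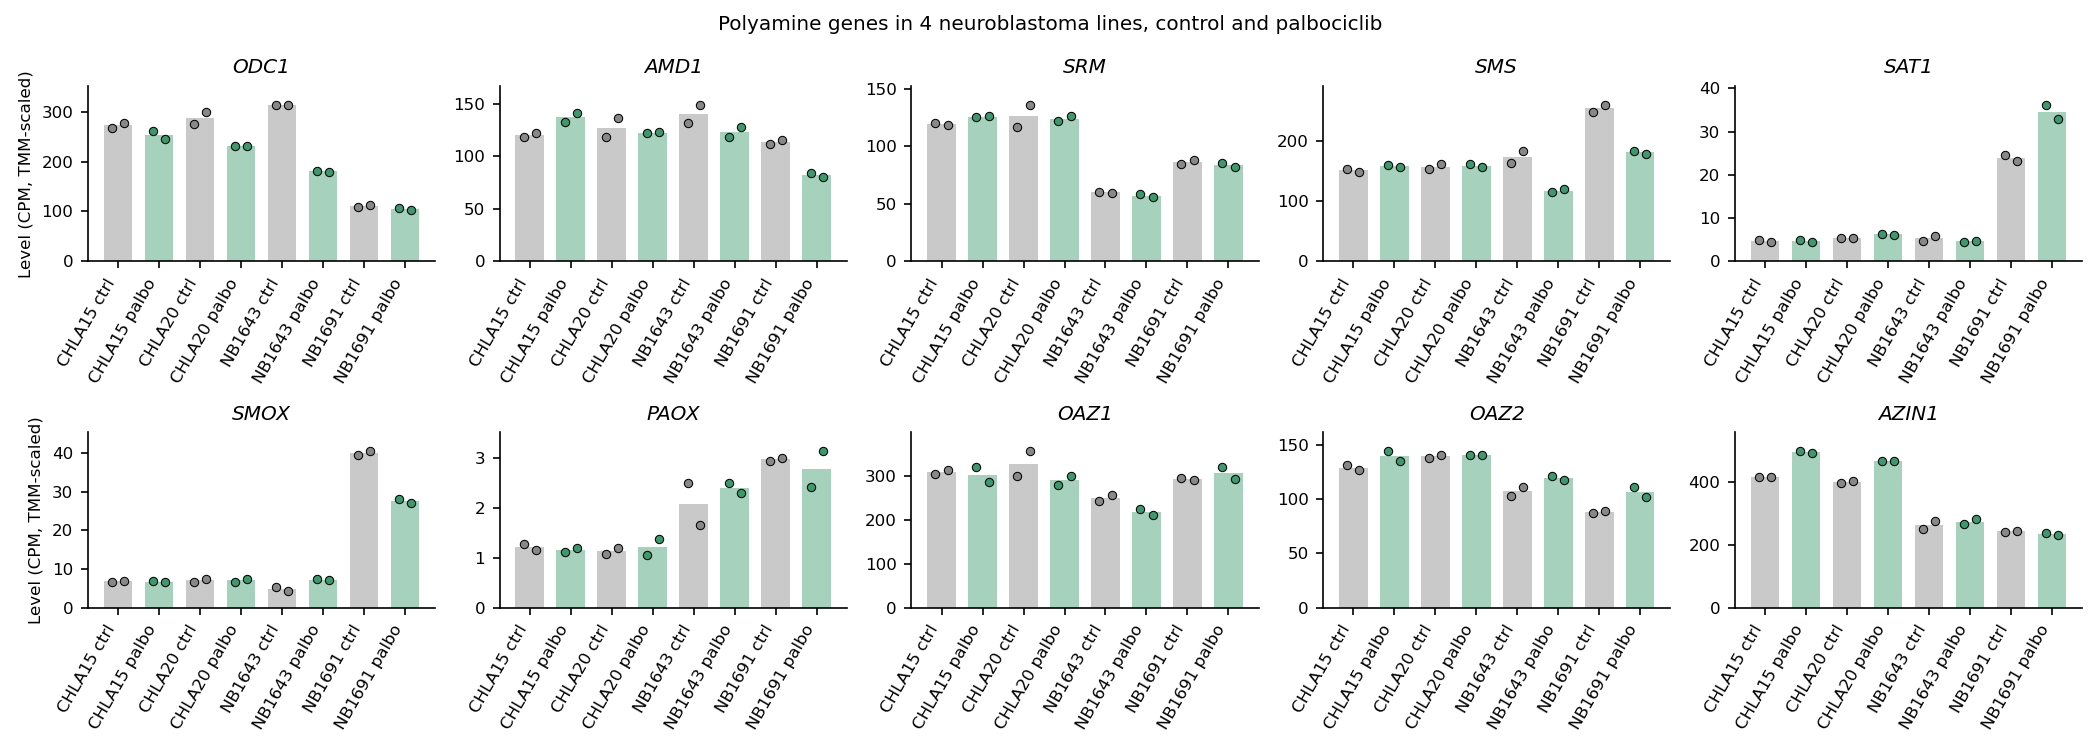
Level of each polyamine gene in 4 lines, control (grey) and palbociclib (green), in TMM-scaled CPM on linear axes from 0 that differ between panels. Points are libraries (n = 2 per line and condition) and bars their means. NB1691 stands apart with high SAT1 and SMOX and low ODC1, and the fall of ODC1 in NB1643 and of SMS in NB1643 and NB1691 is seen as a step from grey to green.

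NB1691 controls had the lowest ODC1 and the highest SAT1 and SMOX. ODC1 stood at 108 and 112 CPM there, at 268 and 277 CPM in CHLA15, 276 and 299 CPM in CHLA20 and 313 and 314 CPM in NB1643 controls. That is 0.351 times the NB1643 level (adjusted p = 2.4e-15), and NB1643 was above CHLA15 and CHLA20 by 0.20 and 0.12 on the log2 scale (adjusted p of 0.00214 and 0.041). SAT1 stood at 24.5 and 23.2 CPM in NB1691 and between 4.47 and 5.89 CPM in the other controls, a 4.49-fold difference from NB1643 (adjusted p = 5.6e-14). SMOX stood at 39.6 and 40.5 CPM in NB1691, at 5.46 and 4.43 CPM in NB1643 and between 6.61 and 7.32 CPM in CHLA15 and CHLA20, 8.03-fold above NB1643 (adjusted p = 1.3e-16). PAOX had its highest level in NB1691 too, at 2.94 and 3.00 CPM, with 2.50 and 1.65 CPM in NB1643 and 1.07 to 1.27 CPM in CHLA15 and CHLA20.

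SRM and AZIN1 were highest in CHLA15 and CHLA20. SRM stood at 117 to 136 CPM in these lines, at 60.6 and 59.5 CPM in NB1643 and at 84.6 and 88.0 CPM in NB1691, so NB1643 held 0.504 times the CHLA15 level (adjusted p = 4.5e-11). AZIN1 stood at 396 to 416 CPM in these lines, at 249 and 276 CPM in NB1643 and at 242 and 243 CPM in NB1691. SMS was highest in NB1691, at 248 and 260 CPM, against 148 to 184 CPM in the other controls. AMD1, at 112 to 149 CPM, and OAZ1, at 244 to 357 CPM, varied least. OAZ2 stood at 127 to 141 CPM in CHLA15 and CHLA20, 103 and 111 CPM in NB1643 and 86.8 and 88.7 CPM in NB1691.

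With palbociclib the members that moved differed from line to line. In CHLA15, 2 members were higher (AMD1 and AZIN1) and 0 lower, where 14.2% of genes were higher and 15.6% lower. In CHLA20, 1 was higher (AZIN1) and 1 lower (ODC1), against 13.7% and 15.9%. In NB1643, 2 were higher (SMOX and OAZ2) and 4 lower (ODC1, AMD1, SMS and OAZ1), against 20.3% and 19.7%, and in NB1691, 2 were higher (SAT1 and OAZ2) and 3 lower (AMD1, SMS and SMOX), against 17.4% and 15.5%. The median log2 fold change of the members was 0.032 in CHLA15, 0.017 in CHLA20, -0.14 in NB1643 and -0.06 in NB1691, against -0.0021, 0, 0 and 0.019 over all genes. The dose was 300 nM in CHLA15 and CHLA20 and 3 µM in NB1643 and NB1691, so line and dose cannot be told apart between these pairs. In NB1691 the library totals in place of TMM moved the share of all calls that were higher from 52.9% to 35.9%.

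The effect of palbociclib differed between lines in 6 members (ODC1, AMD1, SMS, SAT1, SMOX and AZIN1), as it did in 38.0% of all genes (F test of the interaction). Without NB1691 it was 4 members, since SAT1 (adjusted p = 0.109) and AZIN1 (adjusted p = 0.112) no longer passed. OAZ2 missed the threshold of this test in the main fit (adjusted p = 0.0567). On all libraries it passed with limma-voom (adjusted p = 0.0398), DESeq2 (0.00578), upper quartiles (0.0134) and at least 10 counts in every library (0.0323). OAZ2 also passed without any 1 of the CHLA15 libraries, of the controls of CHLA20 or NB1643, or without the second palbociclib library of NB1691. OAZ1 (adjusted p = 0.131) passed on all libraries with no filter beyond 1 count (adjusted p = 0.0194). It also passed without the second palbociclib library of CHLA15, either control of CHLA20 or the first control of NB1643.

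ODC1 fell most in NB1643. It stood at 313 and 314 CPM in NB1643 controls and at 182 and 180 CPM with palbociclib, well outside the spread of either pair, a fall to 0.578 times the control (log2 fold change -0.79 ± 0.052, SE, adjusted p = 6.1e-10). In CHLA20 ODC1 went from 276 and 299 CPM to 231 and 231 CPM (-0.32 ± 0.052, adjusted p = 1.1e-04). The change was -0.11 in CHLA15 (261 and 245 CPM with palbociclib, adjusted p = 0.136) and -0.072 in NB1691 (106 and 103 CPM, adjusted p = 0.328), with intervals from -0.21 to 0.0016 and from -0.18 to 0.039. With library totals in place of TMM both of these passed the threshold (adjusted p of 0.031 and 0.0187). The interaction for ODC1 had an adjusted p of 8.7e-07, and of 2.7e-05 without NB1691. MYCN in NB1643 went from 3093 and 3257 CPM to 2232 and 2166 CPM, and in NB1691 from 86.1 and 86.5 CPM to 106 and 102 CPM. MYC went from 719 and 684 CPM to 622 and 595 CPM in CHLA15. In CHLA20 MYC went from 662 and 707 CPM to 646 and 649 CPM, and in NB1691 from 72.9 and 66.2 CPM to 64 and 59.3 CPM. Any relation of these values to ODC1 was not tested.

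SMS fell in the lines given the higher dose. It went from 163 and 184 CPM to 115 and 120 CPM in NB1643 (-0.56 ± 0.058, SE, adjusted p = 3.0e-07) and from 248 and 260 CPM to 184 and 179 CPM in NB1691 (-0.49 ± 0.058, adjusted p = 2.6e-06). In CHLA15 and CHLA20, SMS stood between 148 and 162 CPM in all libraries, with changes of 0.062 and 0.019 that did not pass the test (adjusted p of 0.478 and 0.877). The interaction for SMS had an adjusted p of 4.1e-06, and of 0.00011 without NB1691.

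AMD1 fell in NB1691 from 112 and 115 CPM to 83.6 and 80.7 CPM (-0.47 ± 0.069, SE, adjusted p = 3.7e-05). Its smaller fall in NB1643, from 132 and 149 CPM to 118 and 128 CPM (-0.20, adjusted p = 0.0271), and its rise in CHLA15, from 118 and 122 CPM to 133 and 141 CPM (0.19, adjusted p = 0.042), were lost under several alternatives. In CHLA15 AMD1 did not pass with library totals or without the second palbociclib or either control library (adjusted p of 0.0708, 0.272, 0.216 and 0.0991), nor without NB1691 in the fit (0.0739). In NB1643 it did not pass with DESeq2 or upper quartiles, with the line fitted alone, without the first palbociclib library or without the second control library (adjusted p of 0.0604, 0.103, 0.0949, 0.249 and 0.172). In CHLA20 AMD1 changed by -0.052 (adjusted p = 0.647).

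SRM was not called in any line, at changes of -0.078 to 0.078 on the log2 scale with adjusted p of 0.351 to 0.788. SRM stood at 125 and 126 CPM with palbociclib in CHLA15, 122 and 126 CPM in CHLA20, 58.2 and 55.6 CPM in NB1643 and 85.3 and 82.2 CPM in NB1691, close to the controls of each line given above.

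SMOX moved in opposite directions in NB1643 and NB1691. It rose from 5.46 and 4.43 CPM to 7.33 and 7.13 CPM in NB1643 (0.54 ± 0.096, SE, adjusted p = 1.7e-04) and fell from 39.6 and 40.5 CPM to 28.2 and 27.0 CPM in NB1691 (-0.54 ± 0.075, adjusted p = 1.8e-05), without overlap in either line. In CHLA15 and CHLA20 it stayed between 6.61 and 7.53 CPM. The interaction for SMOX had an adjusted p of 1.2e-05, and of 0.0313 without NB1691. SAT1 rose in NB1691 from 24.5 and 23.2 CPM to 36.2 and 32.8 CPM (0.54 ± 0.081, SE, adjusted p = 4.2e-05). In the other lines SAT1 stood between 4.43 and 6.36 CPM, and its changes of 0.0018, 0.23 and -0.21 in CHLA15, CHLA20 and NB1643 did not pass (adjusted p of 1, 0.0983 and 0.133). PAOX stood at 1.06 to 3.13 CPM over the experiment and was not called in any line, with intervals that reached from -0.52 to 0.59. Without the first NB1643 control library, SAT1 (-0.36, adjusted p = 0.0174) and PAOX (0.55, adjusted p = 0.0448) passed the threshold in that line.

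Among the regulators, AZIN1 rose in CHLA15 from 416 and 414 CPM to 497 and 491 CPM (0.25 ± 0.051, SE, adjusted p = 9.0e-04) and in CHLA20 from 396 and 404 CPM to 467 and 465 CPM (0.22 ± 0.051, adjusted p = 0.00256). AZIN1 in NB1643 (266 and 281 CPM with palbociclib) and NB1691 (237 and 232 CPM) changed by 0.061 and -0.048, with intervals from -0.046 to 0.17 and from -0.16 to 0.06. With library totals in place of TMM, AZIN1 in NB1691 passed as lower (-0.13, adjusted p = 0.0335). OAZ2 changed by 0.11 in CHLA15 and by 0.014 in CHLA20, not past the threshold (adjusted p of 0.145 and 0.912). The change in CHLA15 passed with DESeq2 and with that line fitted alone (adjusted p of 0.0379 and 0.0464). In NB1691 OAZ2 rose from 86.8 and 88.7 CPM to 111 and 102 CPM (0.28 ± 0.056, adjusted p = 5.9e-04). Its rise of 0.16 in NB1643, from 103 and 111 CPM to 121 and 118 CPM (adjusted p = 0.0302), and the fall of OAZ1 there by 0.20, from 244 and 257 CPM to 225 and 211 CPM (adjusted p = 0.0402), were near the threshold. With NB1643 fitted alone their adjusted p were 0.114 and 0.0543, and neither passed without either palbociclib library of NB1643 (0.147 and 0.0676 for OAZ2, 0.0632 and 0.265 for OAZ1). OAZ2 was also lost without the first control library and without NB1691 (0.16 and 0.0747), and OAZ1 without the second control library, with DESeq2 and with upper quartiles (0.0963, 0.0682 and 0.129). In the other lines OAZ1 lay between 281 and 357 CPM and was not called in the main fit. In CHLA20 OAZ1 passed as lower with DESeq2 (-0.19, adjusted p = 0.0441) and with no filter beyond 1 count (-0.18, adjusted p = 0.0124). Without the first control library of CHLA20 its change there was -0.32.

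**Figure D5:**
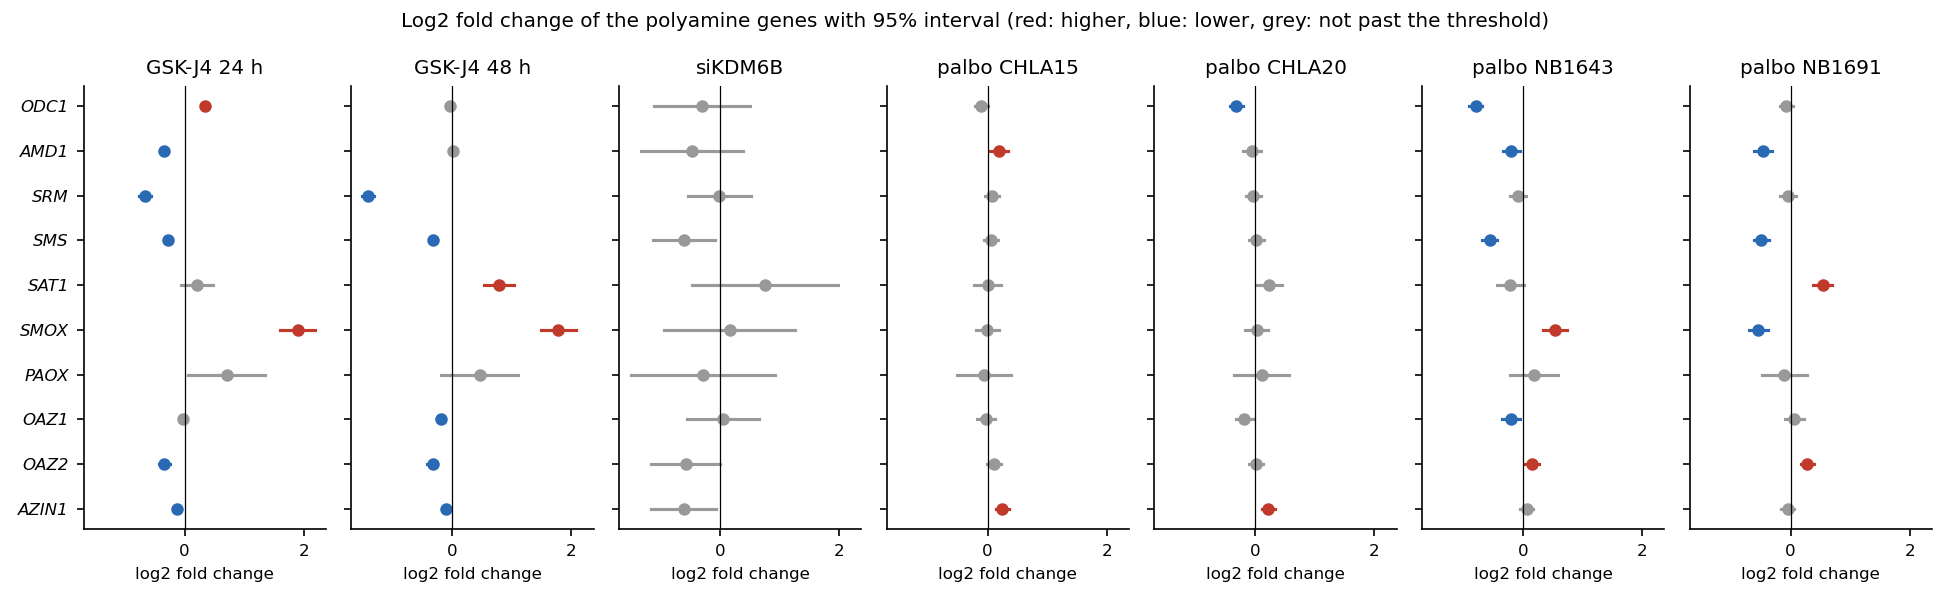
Log2 fold change of each polyamine gene (rows) in 7 comparisons (columns, on a shared axis), with its 95% interval as a bar. Red points are higher and blue points lower at an adjusted p under 0.05, and grey points did not pass. SRM moves past the threshold with GSK-J4 and not with palbociclib or siRNA, and the intervals of the siRNA comparison are the widest.

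Of the wider list, 26 genes were tested with palbociclib. In CHLA15, 5 were higher and 7 lower, in CHLA20, 1 higher and 6 lower, in NB1643, 0 higher and 12 lower, and in NB1691, 7 higher and 5 lower. The shares of all genes higher and lower were 14.2% and 15.6% in CHLA15, 13.7% and 15.9% in CHLA20, 20.3% and 19.7% in NB1643, and 17.4% and 15.5% in NB1691. The medians of their log2 fold changes were 0.029, -0.048, -0.01 and 0.094, and 11 of the 26 differed between lines in the interaction test, where 38.0% of all genes did. SLC3A2 fell from 117 and 134 CPM to 59.5 and 62.8 CPM in CHLA15 (-1.04, adjusted p = 6.1e-10) and from 168 and 172 CPM to 58.5 and 61.9 CPM in CHLA20 (-1.50, adjusted p = 8.3e-12), and rose from 97.4 and 100.0 CPM to 128 and 122 CPM in NB1691 (0.34, adjusted p = 2.4e-04). SLC12A8 fell in CHLA15 and CHLA20 by 0.80 and 0.92 (adjusted p of 1.8e-05 and 5.0e-06).

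ATP13A3, a transporter that takes up polyamines, rose in NB1691 from 506 and 512 CPM to 939 and 958 CPM (1.86-fold, adjusted p = 1.8e-10) and in CHLA15 from 118 and 122 CPM to 158 and 166 CPM (1.36-fold, adjusted p = 4.9e-06). ARG2 fell in NB1691 from 7.76 and 8.91 CPM to 5.84 and 5.56 CPM (-0.55, adjusted p = 2.3e-04). The rule further named OAT in CHLA15 (0.35) and ATP13A2 in CHLA20 (0.21) as higher, and APIP in NB1691 (-0.39), EIF5A2 in NB1643 (-0.71) and SLC18B1 in NB1643 (-2.97) as lower. SLC18B1 rests on few reads, with 17 and 2 counts in the NB1643 controls and 1 count in each palbociclib library.

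Over the 16 libraries of the palbociclib experiment, the genes whose log2 CPM was most like that of ODC1 among 15088 genes were STK24 and DHTKD1 (Pearson's r of 0.992 each) and KLHL8 (0.988). For SAT1 the genes most like it included BRE (0.997) and SERPINB2 (0.992). The libraries come from 4 lines with 4 libraries each, and the lines differ more than the treatments, so these values describe the pattern over lines.

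Counting adds limits of its own. By GENCODE, SAT1, PAOX, OAZ1 and AZIN1 overlap other protein-coding genes on the same strand, and ODC1 overlaps SNORA80B, a small nucleolar RNA gene. OAZ1, OAZ2 and AZIN1 overlap genes on the other strand, JSRP1 in the case of OAZ1. Whether the annotation used for counting held these genes was not checked, and whether strand was used is not given in the sources used here. How reads of these pairs were assigned or set aside is therefore not known.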

How the data were processed

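The authors aligned paired reads to GRCh37 (hg19), with CASAVA, STAR 2.5.3a and HTSeq named in the submitters' processing notes, and deposited whole-number read counts per gene symbol without normalization in 38 files. The annotation named in the study's methods is a mouse release, whereas the symbols are human. Counts of the 2 files belonging to each BE2C library (22 files, 11 libraries) were added up, with a chi-square per degree of freedom of 1.48 to 1.65 between the files; with the 16 palbociclib libraries this gave 27. That the 2 files of each KDM6B siRNA are 1 library is an inference. The summary lines of the counter were left out.

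Each experiment was fitted apart with edgeR 4.0.16 in R 4.3.3, using TMM scaling, filterByExpr, quasi-likelihood F tests and Benjamini-Hochberg adjustment over all genes tested, at 0.05. Intervals are 95% and cover the spread between libraries. Alternatives were limma-voom (limma 3.58.1), DESeq2 1.42.0, library totals, upper quartiles, other filters, a minimum log2 fold change of 0.5, each file as a sample, the compared groups alone, a replicate block and each library left out. Leaving out NB1691 was added after the data were seen. The pipeline was tested on simulated counts.

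The members and lists were chosen with earlier results of these data known. All 10 members are named in each comparison. From the wider list the 2 highest and 2 lowest called genes with a mean of at least 1 CPM are named, and for ODC1 and SAT1 the 3 genes with the highest correlation, of which 1 is not reported here, nor are 2 of the markers first listed. Positions are from GENCODE on GRCh37.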

Additional observations from a re-analysis of the deposited data

Results flagged for a closer look

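The effect of palbociclib differed between the 4 lines in 6 members by the edgeR interaction test, as it did in 38.0% of all genes. Without NB1691, SAT1 and AZIN1 no longer passed that test (adjusted p of 0.109 and 0.112). The log2 fold change of ODC1 ranged over 0.72 between lines (adjusted p = 8.7e-07), from -0.79 in NB1643 to -0.072 in NB1691. That of AMD1 ranged over 0.66 (adjusted p = 2.4e-04), from 0.19 in CHLA15 to -0.47 in NB1691, and that of SMS over 0.62 (adjusted p = 4.1e-06), from 0.062 in CHLA15 to -0.56 in NB1643. SMOX had the widest range, 1.07 (adjusted p = 1.2e-05), with 0.54 in NB1643 and -0.54 in NB1691. SAT1 ranged over 0.75 (adjusted p = 0.00104), from -0.21 in NB1643 to 0.54 in NB1691, and AZIN1 over 0.30 (adjusted p = 0.00757), from 0.25 in CHLA15 to -0.048 in NB1691. Dose differed between the CHLA and NB lines, and its part in these differences was not tested.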

How the results depend on the processing

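Of 1480 values of a member under an alternative, 1359 kept their sign and their side of the threshold, 41 gained the threshold, 26 lost it and 53 changed sign while past the threshold in neither fit. In 1 case, ODC1 at 48 h against 0 h of GSK-J4, the value turned from -0.037 to 0.073 and passed the threshold with upper quartiles. A minimum log2 fold change of 0.5 left 2, 3 and 2 members called with GSK-J4 (24 h and 48 h against 0 h, and 48 h against 24 h) in place of 7, 7 and 5, and 0, 0, 3 and 2 with palbociclib in CHLA15, CHLA20, NB1643 and NB1691 in place of 2, 2, 6 and 5. The share of all genes called past this minimum was not counted. For the libraries labelled siKDM6B, each file as a sample gave 3 members in place of 0. With only NB1643 in the fit, 3 of its 6 members were called, and without NB1691, 1 of the 2 in CHLA15; the cause was not tested. Without 1 library, the counts were 1 to 2 in CHLA15, where leaving out the second palbociclib or either control library lost AMD1, and 3 to 7 in NB1643, where the count of 3 came without the first palbociclib library. They were 7 to 8, 7 to 7 and 5 to 5 with GSK-J4, 0 to 0 with siRNA, 2 to 3 in CHLA20, 5 to 5 in NB1691, 6 to 8 for the interaction and 10 to 10 for the untreated lines. The share of all calls that were higher moved with upper quartiles from 48.1% to 58.1% for 48 h against 24 h. Same-numbered libraries did not deviate together (correlations of -0.06 to 0.05). With the replicate block the counts were 7, 7 and 5 with GSK-J4, 2, 2, 5 and 5 in the 4 lines, 6 for the interaction and 10 for the untreated lines, and OAZ1 in NB1643 was the call lost. No paired analysis was possible for the siRNA comparison because its libraries share fewer than 2 replicate numbers. Depth limits PAOX most, whose lowest count in a library was 17 with GSK-J4, 23 with siRNA and 65 with palbociclib.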

Other observations

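Several genes related to the members changed with GSK-J4 at levels near or under 1 CPM, and are given here after their values were seen. AZIN2, an antizyme inhibitor like AZIN1, stood at 0.221 and 0.197 CPM at 0 h, 0.653 and 0.979 CPM at 24 h and 1.54 and 1.28 CPM at 48 h (log2 fold change 2.75 ± 0.35, SE, at 48 h, adjusted p = 2.5e-09), whereas AZIN1 fell slightly. AGMAT, an enzyme of the agmatinase family, stood at 0.690 and 0.816 CPM at 0 h and at 0.124 and 0.0405 CPM at 48 h (log2 fold change -3.07 ± 0.50, adjusted p = 4.5e-07). KDM6B itself was higher with GSK-J4, at 7.42 and 8.16 CPM at 0 h, 16.1 and 16.6 CPM at 24 h and 23.7 and 22.8 CPM at 48 h.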
